A study of Mus musculus with 16 samples.

Results

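Enterocytes of mice that lack Mfge8 were compared with enterocytes of wild-type (WT) mice, using 9 of the 16 libraries of the series. The genes described are the 9432 of 24420 with a normalised read count of at least 5 in at least 4 of these 9 libraries. Enterocytes are the absorptive cells that line the small intestine. The mice were of the strain given as C57B6, and the groups were 4 libraries of WT cells and 5 libraries of cells with the Mfge8 knockout, called null below. The cells were primary, that is taken from the animal without culture, their RNA was isolated on columns, and the 3' ends of polyadenylated transcripts were sequenced (QuantSeq, a 3' tag method). No treatment, and no other allele carried by both genotypes, is given for these groups. The labels do not state which part of Mfge8 was removed, the segment of the intestine, or whether each library came from a mouse of its own. The p-values below therefore measure the spread between these libraries, part of which may be technical.

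MFGE8 is a secreted glycoprotein that bridges phosphatidylserine on dying cells to the integrins alphaVbeta3 and alphaVbeta5 on other cells. In the intestine it is known for raising the uptake of dietary fatty acids and the hydrolysis of triglyceride stored in enterocytes. Enterocytes take up and re-esterify fat, detoxify what the diet brings in, and defend the surface with antimicrobial lectins, hydrogen peroxide and, under the influence of interferon gamma, MHC class II molecules.

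The libraries held 1618369 to 2459812 reads over genes, and 11774 to 12578 genes had at least 1 read. Values are the reads of a gene divided by 1 factor per library, so they compare libraries for the same gene. The 12 enterocyte markers, among them Epcam, Vil1, Fabp2 and Apoa1, passed the filter on low values in these libraries. None of the 12 was called, and their summed level was 57787 to 85635 in WT and 65898 to 90224 in null libraries, so the ranges overlapped. At an unadjusted p of at most 0.05 there were 2 of the 12, and edgeR and DESeq2 called 0, while limma called 1 lower without WT 4. Not one of the 8 smooth muscle markers passed the filter. Goblet cell markers, 14 of 15 of them tested, summed to 49434 to 81990 in WT and 32860 to 104970 in null libraries. Transcripts of goblet cell markers were thus abundant in these libraries too.

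Mfge8 itself was a low gene in these cells. WT libraries 1 to 4 held 20, 11, 21 and 8 reads, and null libraries 1 to 5 held 4, 2, 2, 7 and 2. Normalised, these were 23.4, 11.4, 16.5 and 7.94 in WT and 3.92, 2.19, 1.998, 7.50 and 1.64 in null libraries. The groups did not overlap, although WT 4 and null 4 nearly touched. The gene fell in the null cells (log2 change -1.87, SE 0.46, limma adjusted p = 0.0362), and a 2-sided exact permutation test of the same difference gave p = 0.0159, where 0.00794 is the smallest value that 126 assignments allow. At this depth the call was lost when any library other than WT 4 or null 4 was left out, with adjusted p up to 0.161 (limma, without WT 1). A 3' tag outside the removed part would still be read in a null animal, so the reads left in null libraries check neither the deletion nor the protein.

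Each gene was tested with limma on log2(value + 1), 2-sided, and called at a Benjamini-Hochberg adjusted p of at most 0.05 over the 9432 genes. A log2 change is null minus WT on that scale, and the added 1 makes it smaller than the true change where a gene has few reads. In all 303 genes were called (3.21% of those tested), 149 of them higher in null cells (1.58%) and 154 lower (1.63%), while 1498 genes had an unadjusted p of at most 0.05. The median change over the tested genes was 0.00102. The counts of calls in each list below stand beside these shares of 1.58% called higher and 1.63% called lower. Of the called genes 191 moved by more than 1 on the log2 scale, 88 up and 103 down, and 250 had groups that did not overlap. Among all tested genes, 606 had groups that did not overlap.

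**Figure D1:**
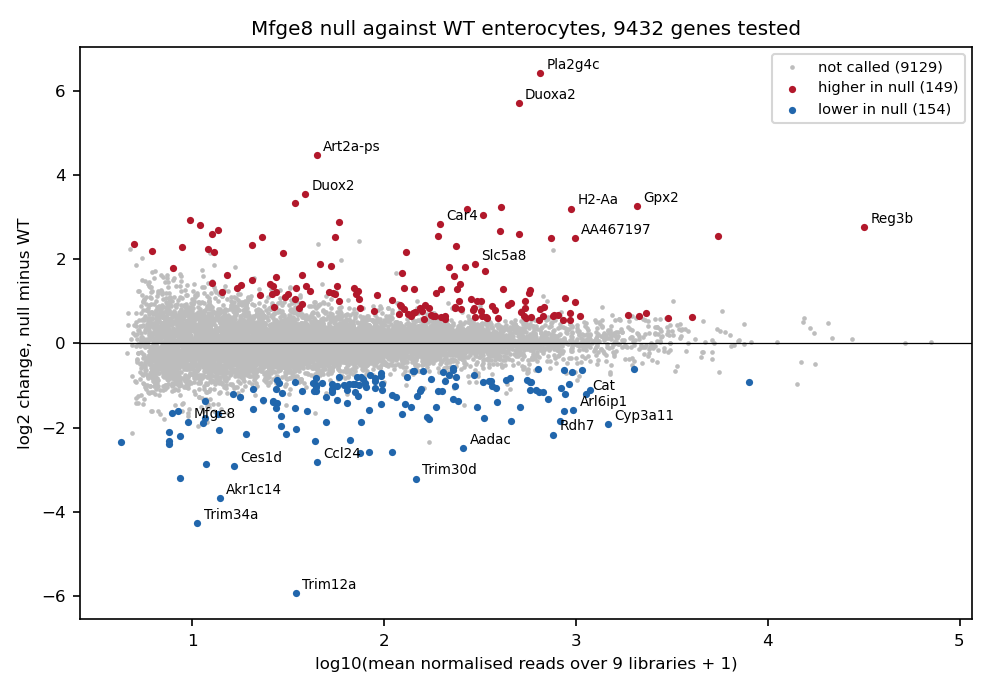
Log2 change (null minus WT, y axis) against log10 of the mean normalised reads + 1 over the 9 libraries (x axis) for the 9432 tested genes. Red points were called higher, blue points lower, grey points neither. The 34 genes that rose by at least 2 on the log2 scale reach from low to high levels, as do the 24 that fell by at least 2.

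The first axis of a principal component analysis carried 28.6% of the variance. WT libraries lay at -44.4, -20.6, -31.7 and -5.65 on it, and null libraries at 25.4, 2.09, 20.01, 22.7 and 32.2. WT libraries were thus all on the negative side, with WT 4 and null 2 the closest pair. Leaving out single libraries gave between 135 (without WT 1) and 387 (without WT 4) called genes. Of the 303 genes, 127 kept their call when each library in turn was left out, and 68 (37 higher, 31 lower) kept it in every alternative run. No call reversed its direction in these alternatives.

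Most of the tested MHC class II genes rose together. This pathway loads peptides on class II dimers such as H2-A with the help of the invariant chain (Cd74) and the exchange factor H2-DM. The transcription of its genes depends on the coactivator Ciita. Of 16 listed genes 12 passed the filter, 7 of these were called, all higher, and the list's median change was 2.51, beside 0.00102 over all tested genes. These 7 calls held in each alternative run, including those that left out a library.

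Ciita was low in the WT cells, at 2.34, 6.24, 6.27 and 6.95 in WT 1 to 4, and stood at 49.95, 38.4, 31.96, 31.1 and 25.4 in null 1 to 5 (log2 change 2.54, SE 0.32, limma adjusted p = 0.000255). WT 1 was the lowest library, and the groups were far apart. For the alpha chain H2-Aa the WT libraries held 91.2, 249.5, 129 and 233, and the null libraries 1148, 2008, 1582, 1069 and 1984 (log2 change 3.21, SE 0.27, limma adjusted p = 9.46e-06). The lowest null library stood far above the highest WT library. Its partner H2-Ab1 was at 109, 286, 185 and 289 in WT and 976, 1376, 1059.8, 981 and 1430.4 in null libraries (log2 change 2.50, limma adjusted p = 1.93e-05).

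H2-Eb1, another class II beta chain gene, had 56.1, 131, 83.1 and 151 in WT and 559, 809, 666, 482 and 669 in null libraries (log2 change 2.67, limma adjusted p = 1.62e-05). Cd74 was at 19.9, 80.1, 33.7 and 81.4 in WT and 413, 555, 399.5, 311 and 527 in null libraries (log2 change 3.21, SE 0.33, limma adjusted p = 2.82e-05). In both genes WT 1 and WT 3 were the lowest and every null library lay above every WT library. H2-DMb1 ranged 31.6 to 139.98 in WT and 403 to 588 in null libraries (log2 change 3.06, limma adjusted p = 2.23e-05), and H2-DMa 6.27 to 19.9 and 66.4 to 115 (log2 change 2.53, limma adjusted p = 8.56e-05). The DNA-binding partners of Ciita were not called: the changes of Rfx5, Rfxank and Rfxap were 0.40, 0.19 and -0.72 (limma adjusted p = 0.687, 0.854 and 0.248). Neither were the lysosomal genes Ctss (0.09, limma adjusted p = 0.832) and Ifi30 (-0.42, limma adjusted p = 0.24). The 4 members below the filter were H2-Eb2, H2-Oa, H2-Ob and H2-DMb2, and H2-DMb2 had no read.

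Since the 7 genes moved together, their promoters are of interest. Class II promoters are known for an X box bound by the RFX complex and a Y box bound by NF-Y, the platform on which Ciita acts. RefSeq (GRCm38.p6) held a promoter window, from 250 bases before to 50 after the start, for 4 of the 7 genes, and 3 of these carried the letters CTNGNAACT followed within 80 bases by TGATTGG. The letters were chosen after these promoters had been read. They are shown in capitals, 5′ to 3′ on the strand of the gene, the X letters first. The stretches are chr17:34287842-34287932 (minus strand) for H2-Aa, chr17:34305748-34305837 (plus) for H2-Eb1 and chr17:34153069-34153159 (plus) for H2-DMb1.
H2-Aa: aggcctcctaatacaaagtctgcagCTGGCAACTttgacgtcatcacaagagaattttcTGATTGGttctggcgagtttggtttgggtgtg
H2-Eb1: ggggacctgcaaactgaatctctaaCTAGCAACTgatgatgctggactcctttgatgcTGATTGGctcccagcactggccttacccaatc
H2-DMb1: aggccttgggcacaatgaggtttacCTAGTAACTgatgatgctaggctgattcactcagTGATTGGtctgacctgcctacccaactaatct
The X letters began 84, 94 and 97 bases before the start of H2-Aa, H2-Eb1 and H2-DMb1, and 25, 24 and 25 bases separated them from the Y letters. Of 32851 promoter windows 4.1% held the X letters and 7.82% the Y letters on either strand, and the 2 motifs do not overlap. The X letters followed by the Y letters on the strand of the gene were found in 8 windows (0.0244%), and in 2 more on the opposite strand. The 8 include the 3 shown, from which the letters were chosen. Tested genes with the pair numbered 5, and the 2 that are not shown were not called. The window of H2-DMa held no such pair.

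Cells other than enterocytes also carry class II molecules, so their markers are given here. The macrophage and dendritic cell list had 9 of 21 members tested, none of them called, with 1 at an unadjusted p of at most 0.05, 0 by edgeR or DESeq2, and a summed level of 63.5 to 116 in WT and 50.4 to 157 in null libraries. Of its members below the filter Adgre1 had 0 to 4 reads per library, Csf1r 0 to 7 and C1qc 1 to 9, and Cd163 alone of the 21 had no read. Of the B cell and plasma cell list 4 of 15 members were tested and only the plasma cell gene Jchain was called, with a summed level of 17.5 to 124 in WT and 206 to 499 in null libraries. The 4 tested members of this list had a median change of 0.99, with 3 positive changes and 1 negative. Its immunoglobulin genes Igha, Ighm, Igkc, Iglc1 and Iglc2 had no entry among the measured genes. The B cell markers Cd79a and Pax5 had no read in any library, and Cd22 had 0 to 6 reads per library. The part of these cells in the class II values was not tested. In a bulk library, fewer cells of a type and less RNA per cell cannot be told apart.

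T cell and intraepithelial lymphocyte markers stood higher on balance, yet none passed the test: 19 of 24 were tested, 17 had a positive change, and the median change was 0.83. Their summed level was 1479 to 4537 in WT and 3920 to 9517 in null libraries, so the ranges overlapped. By limma 11 of the 19 had an unadjusted p of at most 0.05, while edgeR called 0 and DESeq2 3. Leaving out WT 4 gave 7 limma calls in this list, all higher. Intraepithelial T cells are a known source of interferon gamma. Their part in the class II values was not tested either.

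Other interferon genes are given here beside the 1.58% called higher over all tested genes. Of 17 tested interferon gamma inducible genes, the ubiquitin-like modifier Ubd alone was called (log2 change 2.60, SE 0.65, limma adjusted p = 0.0395), and the median change was 0.23. WT libraries held 31.6, 119.6, 59.6 and 346 for Ubd and null libraries 956, 158, 257, 1509.8 and 1097, and the call was lost without WT 1, WT 2, WT 3, null 1, null 4 or null 5. Of 22 tested MHC class I and peptide loading genes, only the chaperone Calr was called (log2 change 0.56, limma adjusted p = 0.023), and the median was 0.17. The Calr call was lost without WT 1, WT 2, null 1 or null 5. H2-K1, B2m and the transporter Tap1 had log2 changes of 0.31, 0.02 and 0.54 (limma adjusted p = 0.537, 0.976 and 0.274). Zbp1 and Usp18 were the called members among 35 tested type I and III interferon response genes, whose median change was 0.16, and neither was called once null 3 and null 5 were left out together.

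Genes that make and remove hydrogen peroxide at the luminal surface formed the second group. Duox2 is the oxidase that releases hydrogen peroxide, and Duoxa2 its maturation factor. In RefSeq the 2 genes lie next to each other on chromosome 2 of GRCm38.p6, at 122279246 to 122298740 and 122298900 to 122302885. Duox2 was at 2.34, 3.12, 3.92 and 10.9 in WT and at 51.9, 74.5, 89.9, 44.97 and 58.2 in null libraries (log2 change 3.56, SE 0.35, limma adjusted p = 1.93e-05), 12.6 times the WT mean. Duoxa2 was at 1.17, 23.9, 6.27 and 107 in WT and 318, 892, 1590.2, 539.7 and 1038 in null libraries (log2 change 5.73, SE 0.77, limma adjusted p = 0.000412). WT 4 was the highest WT library for both genes, and the lowest null library still lay well above it for both. Gpx2, the epithelial glutathione peroxidase, was at 304, 381, 162 and 770.4 in WT and 2868, 3140.5, 3904, 4077 and 3028 in null libraries (log2 change 3.28, limma adjusted p = 1.62e-05), and its reads could be shared with a near-identical pseudogene. Gpx2-ps1, named after its values were seen, was also called higher, with means of 106 in WT and 307 in null libraries (log2 change 1.81, limma adjusted p = 0.0109). The Gpx2-ps1 call was lost without WT 1 and with the regional score described below as a covariate.

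The rises of Duox2, Duoxa2 and Gpx2 were the only higher calls among the 24 tested members of the Duox and peroxide list, whose median change was -0.05. These 3 calls held in each alternative run. The peroxisomal enzyme catalase (Cat) went the other way, at 1909, 1524, 1917 and 1218 in WT and 446, 808, 801, 799 and 732 in null libraries (log2 change -1.20, limma adjusted p = 0.00233). The peroxiredoxins Prdx1 and Prdx5 and the dismutase Sod1 were not called, with changes of -0.02, 0.17 and -0.44 (limma adjusted p = 0.983, 0.676 and 0.225). Glutathione reductase (Gsr), which restores the glutathione that Gpx2 consumes, rose from 169.5, 265, 197 and 301 in WT to 589, 540.4, 699, 457 and 539.7 in null libraries (log2 change 1.30, limma adjusted p = 0.000505). Sulfiredoxin (Srxn1), which repairs peroxiredoxins, rose as well (log2 change 0.64, limma adjusted p = 0.0363), a call lost without WT 1, WT 2, WT 3, null 3 or null 4.

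The antimicrobial lectins of the Reg family split. Reg3g, which kills gram-positive bacteria, was at 1211, 1605, 773 and 2048 in WT and 6149, 4329.8, 6165, 16484 and 10536 in null libraries (log2 change 2.55, SE 0.34, limma adjusted p = 0.000362). Null 4 was the highest library and WT 3 the lowest. Reg3b rose similarly (log2 change 2.77, limma adjusted p = 0.000192), from a range of 3628 to 9372 to one of 32773 to 94983. In contrast, Reg4 fell from a range of 1414 to 2069 to one of 573 to 1118 (log2 change -1.11, limma adjusted p = 0.00274) and Reg3a was called lower (log2 change -1.60, limma adjusted p = 0.0273). The call of Reg3a was lost without WT 1, WT 2, null 1, null 3 or null 5. Reg1, the fifth tested member, had a change of -2.34 without passing the test (limma adjusted p = 0.071), and since Reg genes are near-identical copies, reads may be split between them. Dmbt1, a mucosal scavenger protein named after its values were seen, was likewise higher, with 109, 113, 18.03 and 66.5 in WT and 315, 150.2, 219, 669 and 458 in null libraries (log2 change 2.33, limma adjusted p = 0.0106).

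Jchain, which joins the subunits of IgA, was at 14.03, 61.3, 42.3 and 116 in WT and 425, 189, 199, 218 and 438 in null libraries (log2 change 2.55, limma adjusted p = 0.00331). Pigr, the receptor that carries IgA across the enterocyte, ranged 2850.2 to 3547 in WT and 4191 to 5242 in null libraries without overlap (log2 change 0.62, limma adjusted p = 0.0378), and this call was lost without any library other than null 1. It was the only called gene among 25 tested inflammatory mediators and NF-kappaB targets, beside 1.58% called higher over all tested genes. Among 12 tested epithelial chemokines the eosinophil attractant Ccl24 fell, from 93.5, 88.4, 81.5 and 72.5 in WT to 11.8, 18.6, 5.99, 17.1 and 6.56 in null libraries (log2 change -2.83, SE 0.31, limma adjusted p = 5.53e-05), and the other 11 were not called, although 2 were called higher without WT 4.

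**Figure D2:**
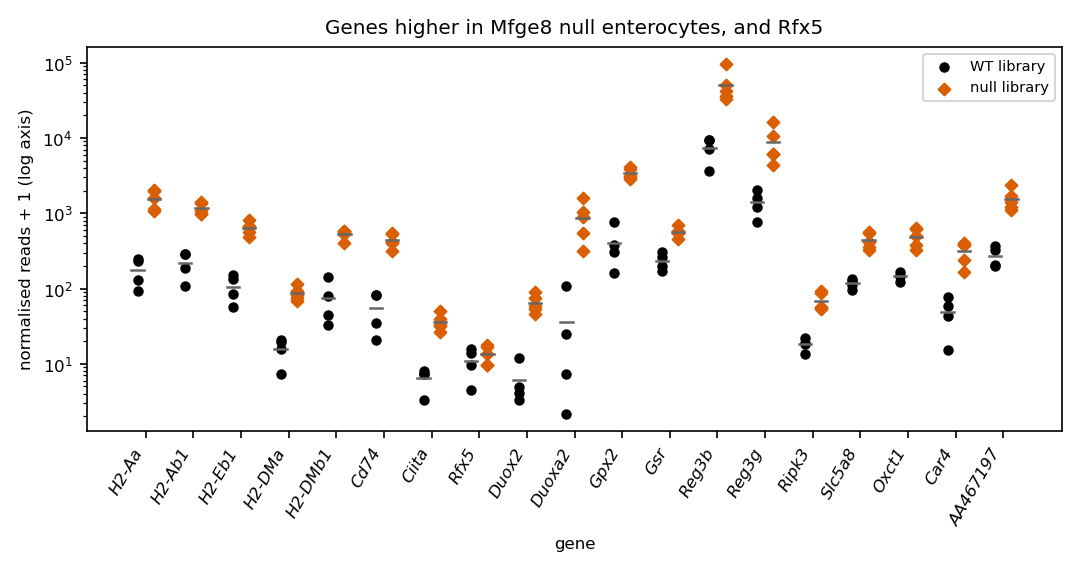
Normalised reads + 1 in each library (log axis) for 18 genes called higher in null cells and for Rfx5, which was not called. Circles are the 4 WT and diamonds the 5 null libraries, with a bar at the mean of each genotype, and the genotypes overlap for Rfx5 alone.

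Cell death genes came next. Ripk3, the kinase that starts necroptosis, was at 21.04, 12.5, 17.2 and 17.9 in WT and 55.8, 52.6, 53.9, 91.02 and 85.3 in null libraries (log2 change 1.90, SE 0.24, limma adjusted p = 0.000218), and this call held in each alternative run. The gasdermin Gsdmc2, a pore-forming protein of the epithelium, was at 14.03, 16.6, 2.35 and 12.9 in WT and 85.2, 112, 159.8, 18.2 and 95.1 in null libraries (log2 change 2.89, limma adjusted p = 0.00679). Null 4 was far below the other null libraries, close to the WT range. Gsdmc3 and Gsdmc4 were called too (log2 changes 2.35 and 2.17, limma adjusted p = 0.0247 and 0.0263), although null 4 lay inside the WT range for Gsdmc4, and reads may be shared among these copies. The 4 higher calls among 23 tested gasdermin and inflammasome genes became 2 without WT 1, WT 3, null 3 or null 5. Without null 3 and null 5 together 1 was left. With a score of position along the intestine, described below, as a covariate, 1 was left as well. The Gsdmc2, Gsdmc3 and Gsdmc4 calls were lost with that covariate (limma adjusted p = 0.163, 0.38 and 0.394). Gsdmd, Casp1 and Casp8 had log2 changes of 0.18, -0.41 and 0.33 (limma adjusted p = 0.567, 0.215 and 0.453). The small proline-rich gene Sprr2a3, a barrier protein, was called as 1 of 3 tested members (log2 change 3.25, limma adjusted p = 0.0158) and lost its call without WT 1.

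Phospholipid-cleaving enzymes gave the largest single rise. Pla2g4c, a cytosolic phospholipase A2, was at 4.68, 4.16, 2.35 and 3.97 in WT and at 230.2, 1746, 3542, 23.6 and 317 in null libraries (log2 change 6.44, SE 0.96, limma adjusted p = 0.00101). WT libraries were within a few reads of each other, while null 3 was far above null 4. Gdpd3, a lysophospholipase D, was at 8.18, 4.16, 0.784 and 8.93 in WT and 50.9, 61.4, 32.96, 61.03 and 72.2 in null libraries (log2 change 3.35, limma adjusted p = 0.000255), with null libraries close together. Gdpd5 (1.44), Gdpd1 (0.74) and Pla2g16 (0.87) were the other higher calls among 19 tested members (limma adjusted p = 0.026, 0.016 and 0.00158), Plbd1 was called lower (log2 change -0.89, limma adjusted p = 0.0317, lost without WT 1, WT 2, WT 3, null 1, null 3 or null 4), and the list's median change was -0.03. The Gdpd5 call was lost without WT 2, WT 3, null 1, null 4 or null 5, and the Gdpd1 call without WT 1. With a score of position along the intestine, described below, as a covariate, 2 higher calls were left.

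The 2 called genes of the ketone body and monocarboxylate list held in each alternative run. Slc5a8, a sodium-coupled transporter of short-chain fatty acids, ketone bodies and lactate, was at 94.7, 127, 111 and 133 in WT and 354, 414, 546, 323 and 567 in null libraries (log2 change 1.89, SE 0.18, limma adjusted p = 1.93e-05). Oxct1, the enzyme that activates acetoacetate for use as fuel, was at 163, 123, 145 and 148 in WT and 376, 498, 611, 644 and 324 in null libraries (log2 change 1.71, SE 0.20, limma adjusted p = 8.56e-05). For both, the lowest null library lay well above the highest WT library. The other 10 tested members were not called. Bdh1 and Acat1, which act beside Oxct1, had log2 changes of -0.24 and -0.91 (limma adjusted p = 0.512 and 0.0546).

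Among 49 tested ion and water transport genes 4 rose and 1 fell, beside 1.58% called higher and 1.63% lower over all tested genes. The median change of these 49 was 0.27. Car4, a membrane-bound carbonic anhydrase, was at 57.3, 76.9, 14.1 and 42.7 in WT and 237, 408, 378, 166 and 374 in null libraries (log2 change 2.83, SE 0.38, limma adjusted p = 0.000362), with WT 3 the lowest library and no overlap. The potassium channels Kcnn4 and Kcnq1 and the kinase Sgk2 were the other 3 (log2 changes 1.80, 1.22 and 1.07, limma adjusted p = 0.0427, 0.0342 and 0.0442), and Mt1, a metallothionein, fell (log2 change -0.91, limma adjusted p = 0.0246, lost without WT 1, WT 2, null 1, null 3 or null 4). Car4 alone of the 4 rises was left without WT 1, WT 2, null 3, null 4 or null 5. Slc36a1, a proton-coupled amino acid transporter, was called among 22 tested amino acid and peptide transporters (log2 change 0.84, limma adjusted p = 0.0105). Slc52a3, the riboflavin transporter, and AA467197 were among the 37 rises that held in each alternative run. Slc52a3 was at 278, 314, 452 and 256 in WT and 652, 768, 827, 739.9 and 866 in null libraries (log2 change 1.27, limma adjusted p = 0.000323), and was named after its values were seen. AA467197 was at 199, 368, 202 and 323 in WT and 1396, 1707, 2363, 1200.3 and 1111 in null libraries (log2 change 2.50, limma adjusted p = 1.62e-05).

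Among 31 tested genes of the unfolded protein and integrated stress response 4 were called higher, beside 1.58% over all tested genes. Canx, the lectin chaperone calnexin, was at 509.7, 519.9, 527 and 481 in WT and 778, 896, 759, 799.9 and 779.99 in null libraries (log2 change 0.65, SE 0.12, limma adjusted p = 0.00751), a tight pair of groups. Hyou1 (0.65), Calr (0.56) and Hsp90b1 (0.56) were also called (limma adjusted p = 0.0308, 0.023 and 0.0299), 28 of the 31 had a positive change, and the median was 0.33. Only Canx was left without WT 1, WT 2 or null 5, and none of the 4 with the regional score as a covariate. Xbp1, Atf4 and Ddit3, transcription factors of this response, had log2 changes of 0.21, 0.23 and -0.04 (limma adjusted p = 0.634, 0.534 and 0.955). In the glycosylation list, the fucosyltransferase Fut2 (log2 change 2.18, limma adjusted p = 0.0157) and the membrane mucin Muc4 (log2 change 1.84, limma adjusted p = 0.0083) were called among 23 tested genes, Fut2 not without WT 2 or null 5, and there were 5 higher calls without WT 4. Of 22 tested brush border peptidases Prss30, Dpp4 and Xpnpep1 were called higher, and no call was left without WT 1 or without null 5.

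Many of the lower calls in the lists were enzymes of small-molecule metabolism, and the retinoid enzymes are described first. The counts of falls in these lists stand beside the 1.63% called lower over all tested genes. Rdh7 oxidises retinol, Aldh1a1 turns retinal into retinoic acid, and Adh1 oxidises both ethanol and retinol. Rdh7 was at 2066, 1222, 1315 and 724 in WT and 186, 608, 315, 200.2 and 227 in null libraries (log2 change -2.17, SE 0.32, limma adjusted p = 0.000932), Aldh1a1 at 842, 782, 731 and 642 in WT and 133, 395, 249, 167 and 173 in null libraries (log2 change -1.84, SE 0.24, limma adjusted p = 0.000323). WT 4 was the lowest WT library and null 2 the highest null library for both, and the groups did not overlap. With Adh1 (log2 change -1.51, limma adjusted p = 0.00643) and Aldh1a7 (log2 change -0.99, limma adjusted p = 0.0149), 4 of 18 tested vitamin A genes fell, none rose, and the median was -0.53. Not called were the retinol carrier Rbp2 (0.11), the esterifying enzyme Lrat (-0.69) and the carotene cleaver Bco1 (-0.87), with limma adjusted p = 0.897, 0.255 and 0.36. Without WT 1 the call of Aldh1a7 was lost, and with the regional score as a covariate 2 of the 4 calls were left.

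Aldo-keto reductases reduce aldehydes and ketones, among them steroids and products of lipid peroxidation. In the list of these reductases and other genes of aldehyde metabolism 9 of 29 tested members fell, beside 1.63% over all tested genes. In it 1 rose (Aldh4a1), and the median was -0.63. Hsd17b13, Hsd17b2 and Aldh3a2 among the 9 are not aldo-keto reductases, and neither is Aldh4a1. Akr1c13 was at 643, 585, 515 and 429 in WT and 119, 207, 151, 145 and 178 in null libraries (log2 change -1.77, SE 0.17, limma adjusted p = 1.93e-05). Akr1c19 was at 247, 163, 103 and 103 in WT and 8.82, 35.1, 23.97, 29.98 and 28.7 in null libraries (log2 change -2.59, limma adjusted p = 0.000364). Akr1c14 was at 19.9, 35.4, 32.9 and 16.9 in WT and 0, 0, 8.99, 0 and 2.46 in null libraries (log2 change -3.68, limma adjusted p = 0.00421), with 3 null libraries at 0 reads. These 3 kept their call in each alternative that could be run on them, and they and Akr1c12 (log2 change -1.12, limma adjusted p = 0.0029) are close copies between which reads may be split. Without WT 1 there were 5 lower calls in this list, and with the regional score as a covariate 3.

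Glutathione transferases attach glutathione to reactive compounds. In their list 7 of 26 tested genes fell and 2 rose, the 2 being Gsr and Srxn1 above, with a median of -0.74. Gsta4, which conjugates lipid aldehydes, was at 168, 96.7, 91.7 and 117 in WT and 13.7, 26.3, 28.97, 24.6 and 23.8 in null libraries (log2 change -2.29, SE 0.24, limma adjusted p = 4.15e-05). Gsta1 was at 189, 86.3, 126 and 146 in WT and 18.6, 32.9, 15.98, 35.3 and 11.5 in null libraries (log2 change -2.60, SE 0.31, limma adjusted p = 0.000129), and Gsta3 at 9.35, 13.5, 16.5 and 10.9 and 0.979, 2.19, 1.998, 1.07 and 2.46 (log2 change -2.32, limma adjusted p = 0.0064). Null libraries held less than WT libraries throughout, by a wide margin. Gstm1, Gstm2, Gstt1 and the glutathione synthesis subunit Gclm fell too (log2 changes -1.52, -1.72, -1.10 and -0.75, limma adjusted p = 0.00476, 0.0199, 0.023 and 0.0229). Without WT 1 there were 4 lower calls, and with the regional score as a covariate 3.

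Carboxylesterases and Aadac hydrolyse esters, including triglyceride in the endoplasmic reticulum, and 6 of their 10 tested members fell, with a median of -1.85. Ces1d was at 50.3, 24.95, 30.6 and 17.9 in WT and 3.92, 4.38, 0.999, 4.28 and 2.46 in null libraries (log2 change -2.92, SE 0.41, limma adjusted p = 0.000599), WT 1 the highest and WT 4 the lowest of its group. Aadac was at 728, 509, 444 and 221 in WT and 76.4, 153, 64.9, 78.2 and 45.1 in null libraries (log2 change -2.49, SE 0.32, limma adjusted p = 0.000304). For Ces2a the WT libraries held 1852, 1455, 1199 and 871 and the null libraries 233, 788, 586, 225 and 253 (log2 change -1.84, limma adjusted p = 0.00541), so that null 2 came close to WT 4. Ces1e, Ces1f and Ces2g were the other 3 (log2 changes -2.15, -1.35 and -1.86, limma adjusted p = 0.00228, 0.0277 and 0.0223), and Ces genes are near-identical copies. Only 4 lower calls were left without WT 1, WT 2, null 1, null 3 or null 5, and 2 with the regional score as a covariate.

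Of the tested genes, 7 of 19 cytochrome P450 genes and 6 of 26 genes of the conjugation and drug efflux list fell, beside 1.63% over all tested genes. None of either list was called higher. Cyp3a11, the main drug-oxidising P450 of the mouse gut, was at 2810.5, 2388, 2452 and 1839 in WT and 332, 1652, 929.9, 474 and 367 in null libraries (log2 change -1.93, limma adjusted p = 0.0064). The lowest WT library was only slightly above null 2. Cyp2c29 (-2.59), Cyp2c55 (-1.76) and Cyp2j6 (-1.21) were further examples (limma adjusted p = 0.0479, 0.0471 and 0.0103). The list medians were -0.88 and -0.40. Of the P450 calls 1 was left without WT 1 and none with the regional score as a covariate. Sult1d1, a sulfotransferase of catechols, was at 1024, 859, 851 and 959.997 in WT and 460.3, 511, 446, 361 and 311 in null libraries (log2 change -1.16, SE 0.16, limma adjusted p = 0.000448), and its call held in each alternative run. Ugt2b35, Ugt2b36, Ugt2a3 and the monoamine oxidases Maoa and Maob completed the 6 calls of the conjugation and drug efflux list. Of these 6 calls 2 were left without WT 1, WT 2 or null 3.

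**Figure D3:**
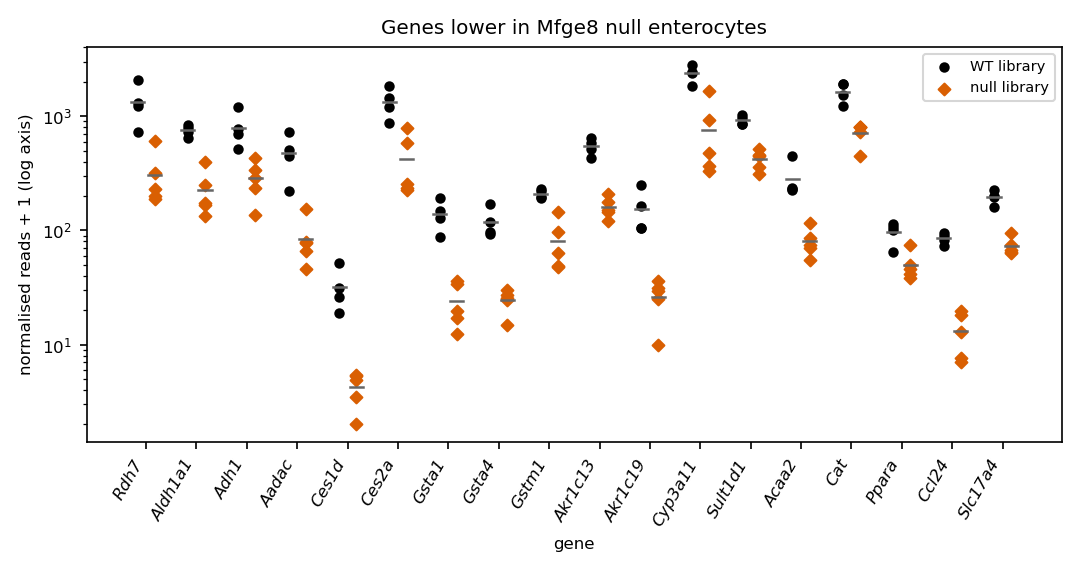
Normalised reads + 1 in each library (log axis) for 18 genes called lower in null cells. Circles are the 4 WT and diamonds the 5 null libraries, with a bar at the mean of each genotype, and the genotypes overlap for Ppara alone.

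Fat-burning genes leaned downward, and their calls are given beside the 1.63% called lower over all tested genes. Acaa2, the last thiolase of mitochondrial beta-oxidation, was at 447, 225, 236 and 227 in WT and 53.9, 114, 68.9, 73.9 and 84.5 in null libraries (log2 change -1.81, SE 0.23, limma adjusted p = 0.000278), and WT 1 stood far above the other WT libraries. It was the 1 call among 25 tested mitochondrial oxidation genes, 23 of which had a negative change, with a median of -0.29. Cpt1a, Acadm and Hadha, the entry step and the core of the pathway, had log2 changes of -0.29, -0.19 and -0.12 (limma adjusted p = 0.636, 0.635 and 0.761). In peroxisomes and microsomes Acaa1b, Nudt7, Hsd17b4 and Phyh fell among 34 tested genes, 28 of which had a negative change, with a median of -0.28. Just 1 of these 4 calls was left without WT 1, WT 2, WT 3, null 1, null 3 or null 5, and none with the regional score as a covariate. Ppara, the nuclear receptor for fatty acids that drives both pathways, was at 112, 105, 100.3 and 63.5 in WT and 40.2, 73.4, 48.9, 37.5 and 45.1 in null libraries (log2 change -0.95, limma adjusted p = 0.0292). Null 2 overlapped the WT range, and the Ppara call was lost without any library other than WT 4 or null 2.

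Cd36, a fatty acid receptor of the brush border, was at 143, 153, 139 and 106 in WT and 60.7, 103, 63.9, 68.5 and 32.8 in null libraries (log2 change -1.10, limma adjusted p = 0.0234). Together with Acsl1, which activates fatty acids (log2 change -0.84, limma adjusted p = 0.0414), it gave 2 lower calls among 20 tested uptake and activation genes. Both calls were lost without WT 1, WT 2, WT 3 or null 3, and that of Acsl1 also without null 1, null 4 or null 5. Slc27a4 (log2 change 0.61, limma adjusted p = 0.0488) and Acss1 (log2 change 1.31, limma adjusted p = 0.0489) were higher. The Slc27a4 call was lost whichever library was left out, and the Acss1 call without WT 1, WT 2, WT 3, WT 4, null 2, null 3 or null 5. No limma call was made among 18 tested triglyceride synthesis and lipid droplet genes (median 0.16), 22 apolipoprotein and chylomicron genes (median 0.07) or 15 sterol absorption genes (median 0.14). Their abundant members Mogat2, Dgat1, Apob and Mttp had log2 changes of 0.10, 0.12, 0.05 and 0.16 (limma adjusted p = 0.882, 0.802, 0.927 and 0.726). At an unadjusted p of at most 0.05 these 3 lists held 5, 4 and 1 genes, edgeR called 1, 0 and 0 and DESeq2 2, 1 and 0. Leaving out null 2 gave 2 lower calls in the first list, and leaving out WT 4 gave 2 in the second. The secreted lipase Pnliprp2 was the only call among 14 tested triglyceride lipases and cofactors (log2 change 1.37, limma adjusted p = 0.0103).

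Several structural and regulatory groups gave no limma call: 33 tested claudin and junction genes, 39 brush border cytoskeleton genes, 15 sugar digestion and transport genes, 17 clock genes and 25 insulin and mTOR genes. In this order 5, 13, 3, 2 and 1 of them had an unadjusted p of at most 0.05, edgeR called 0, 1, 0, 0 and 0, and DESeq2 0, 6, 1, 0 and 0. Without null 4 the cytoskeleton list had 2 higher limma calls. Positive changes prevailed in the first 2 of these lists, in 30 of 33 and 30 of 39 genes, with medians of 0.25 and 0.22. Of 35 tested enterocyte transcription factors Zbtb7b rose (log2 change 0.60, limma adjusted p = 0.0228, lost without WT 1, WT 3, null 3 or null 5), and Onecut2 and Cebpa fell (log2 changes -1.23 and -0.83, limma adjusted p = 0.0401 and 0.0401), both falls lost without WT 1, WT 2, WT 3, null 1, null 3 or null 5. The Cebpa call was also lost without null 4. Over all tested genes 1.58% were called higher and 1.63% lower. Hnf4a, the factor that maintains enterocyte identity, had a log2 change of 0.42 (limma adjusted p = 0.251). Among the 17 tested integrin and MFGE8-related genes only the laminin receptor subunit Itga6 was called (log2 change 0.64, limma adjusted p = 0.048), a call lost without any library other than null 1, and Itgav and Itgb5, which encode the receptor of MFGE8, had log2 changes of 0.12 and -0.06 (limma adjusted p = 0.889 and 0.933).

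**Figure D4:**
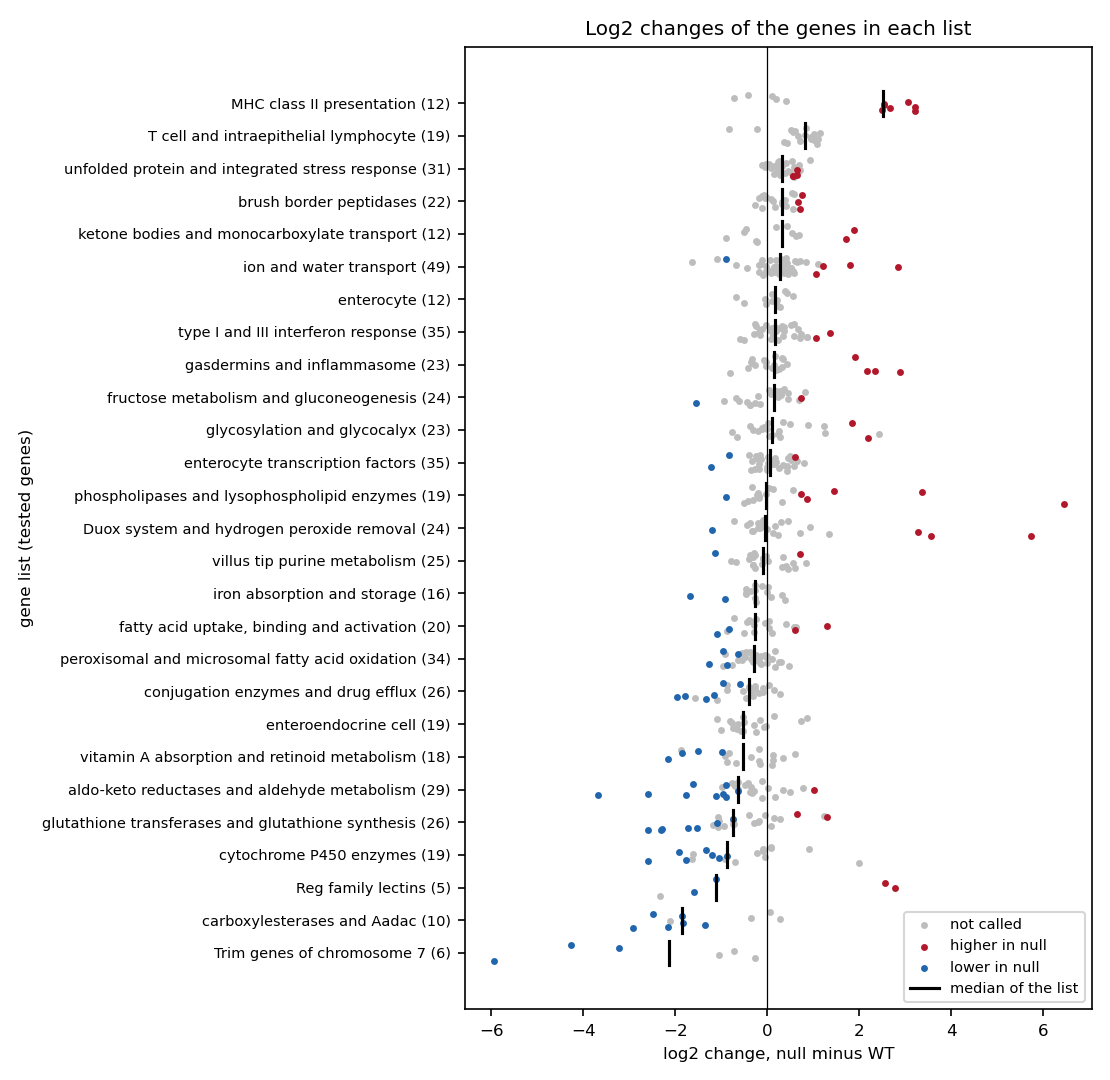
Log2 change (null minus WT, x axis) of each tested gene (point) in the lists with at least 2 calls and in 3 marker lists (y axis, number tested in brackets), ordered by the median change (black bar). Red points were called higher and blue points lower, with MHC class II presentation (median 2.51) at the top and the Trim genes of chromosome 7 (median -2.13) at the bottom.

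Enterocytes differ along the length of the small intestine, and the libraries differed in markers of that position. A regional score was formed as the mean standardised log2 level of tested proximal markers minus that of tested ileal markers. It was 2.09, 0.728, 0.879 and 0.139 in WT 1 to 4 and -0.649, 0.341, -1.66, 0.835 and -2.70 in null 1 to 5. WT 1 was the most proximal by this score and null 3 and null 5 the most ileal, while null 2 and null 4 lay within the WT range. The ileal bile acid binder Fabp6 was at 43.3, 416, 397 and 8959 in WT and 1204, 352, 2352, 34.3 and 6807 in null libraries (log2 change 0.57, SE 1.34, limma adjusted p = 0.89), so both genotypes spanned a wide range. The score includes Onecut2 and Slc51b, which were themselves called.

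With the score as a covariate, 79 genes were called, 75 of them among the 303, and without null 3 and null 5 together 116. Mfge8 was -1.87 in the fit without the covariate and -1.14 with it (limma adjusted p = 0.456). Whether position along the intestine has a part in the lists above was not tested beyond these fits. The MHC class II, Duox2, Duoxa2, Gpx2, Ripk3, Slc5a8, Oxct1 and Car4 calls held with the covariate, as did Rdh7, Aldh1a1, Aadac, Gsta1, Gsta4 and Akr1c13 among the falls. Calls lost with it included those of Cat, Reg4, Dmbt1, Jchain and Muc4 (limma adjusted p = 0.062, 0.0986, 0.0874, 0.113 and 0.0739). Those of Adh1, Akr1c12, Ces2a, Cyp3a11, Lect2, Itpr1, Fras1 and Zfp37 were lost with it as well. Markers of other epithelial cells gave 0 limma calls among 14 tested goblet, 15 Paneth, 19 enteroendocrine and 8 stem cell genes, with 16 of the 19 enteroendocrine markers at a negative change and a median of -0.52. At an unadjusted p of at most 0.05 these lists held 1, 1, 8 and 0 genes, edgeR called 0, 1, 1 and 0 and DESeq2 0, 0, 1 and 0. Without null 4 the enteroendocrine list had 3 lower limma calls. Of 14 tested tuft cell markers Plcg2 was called higher (log2 change 1.17, limma adjusted p = 0.0157).

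Chromosome 7, which carries Mfge8, held 38 called genes among 687 tested (5.53%), the highest share of any chromosome, the others ranging from 0 to 4.14%. Within 10 Mb on either side of Mfge8, 8 of 50 tested genes were called, Mfge8 itself among the 8. Distal of it 1 of 34 was called between 10 and 20 Mb, 8 of 54 between 20 and 30 Mb and 13 of 239 between 30 and 80 Mb. Proximal of it 8 of 310 were called between 10 and 80 Mb. Mfge8 itself lies at 79133768 to 79149060 on chromosome 7 of GRCm38.p6 in RefSeq. The labels do not state how the strain of the knockout was made or how far it was backcrossed, so an effect of the missing gene and an effect of DNA linked to it cannot be told apart for these genes.

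The 2 largest falls lay about 25.2 Mb from Mfge8, in a cluster of Trim genes, whose products are ubiquitin ligases of antiviral defence. Trim12a was at 66.6, 74.9, 80.7 and 79.4 in WT and 1.96, 0, 0, 0 and 0 in null libraries (log2 change -5.94, limma adjusted p = 7.64e-07). It had 312 reads in the 4 WT and 2 in the 5 null libraries, so that the null level was 0.517% of the WT level, with an exact 95% interval of 0.0623 to 1.88% for counting error only. Trim34a had 88 and 1 reads (log2 change -4.27, limma adjusted p = 7.95e-05), a null level of 0.916% of WT with an interval of 0.0229 to 5.24%. Trim30d was at 251, 283, 332 and 287 in WT and 43.1, 30.7, 37.96, 23.6 and 20.5 in null libraries (log2 change -3.21, SE 0.21, limma adjusted p = 5.88e-07). These were 3 of 6 tested Trim genes of chromosome 7, they held in each alternative that could be run on them, and the copies resemble each other enough for reads to be misassigned.

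Nearer to Mfge8, Homer2, a synaptic scaffold protein, was at 312, 272, 312 and 269 in WT and 92.1, 103, 126, 98.5 and 94.3 in null libraries (log2 change -1.50, SE 0.15, limma adjusted p = 1.93e-05). Hddc3 was at 2.34, 3.12, 1.57 and 1.99 in WT and 21.5, 19.7, 11.99, 27.8 and 14.8 in null libraries (log2 change 2.60, limma adjusted p = 0.000624), and its groups were far apart at a low level. Arl6ip1, an endoplasmic reticulum shaping protein 38.99 Mb away, was at 1603, 1449, 1851 and 1251 in WT and 462, 609, 536, 411 and 537 in null libraries (log2 change -1.59, SE 0.16, limma adjusted p = 1.93e-05). Slx1b, a DNA repair nuclease subunit, fell to 0, 0, 1.998, 1.07 and 1.64 from 21.04, 20.8, 10.98 and 10.9 (log2 change -3.21, limma adjusted p = 0.00233), and the pseudogene Art2a-ps rose to 90.1, 46.04, 64.9, 111 and 62.3 from 8.18, 0, 0 and 10.9 (log2 change 4.49, limma adjusted p = 0.000668). The phospholipid genes Gdpd3, Gdpd5 and Pla2g4c are also on this chromosome, at 47.6, 20.25 and -65.8 Mb relative to Mfge8, where a negative distance is proximal. Dmbt1, Fut2, Kcnn4, Kcnq1, Oat, Cebpa and the pseudogene Gpx2-ps1, called genes named in other paragraphs, lie on it too. An effect of linked DNA cannot be told apart for them either. Of the 38 called genes of chromosome 7, 16 kept their call in every alternative run.

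**Figure D5:**
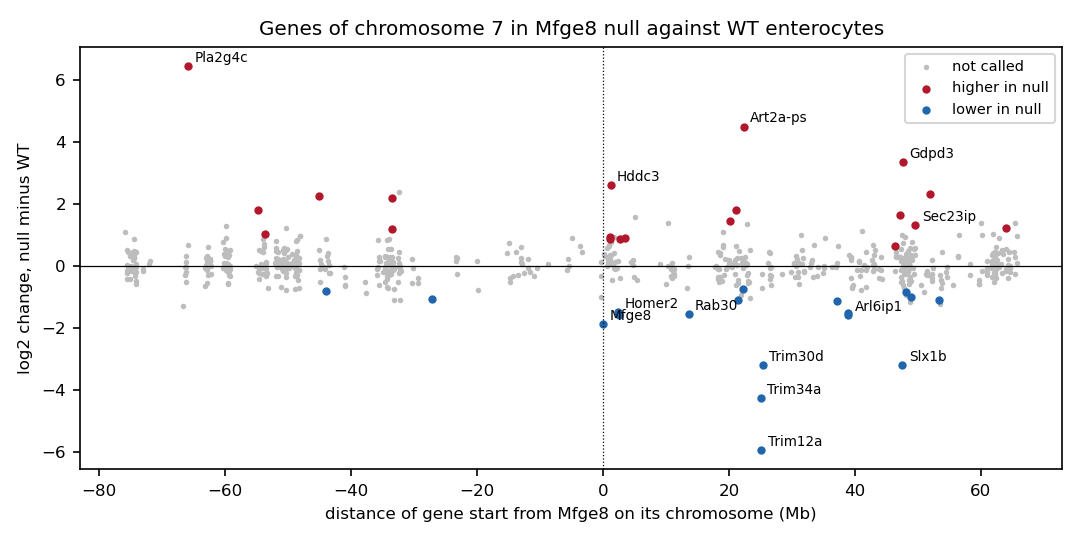
Log2 change (null minus WT, y axis) of the 687 tested genes of chromosome 7 against distance from Mfge8 in Mb (x axis), with genes called higher in red and lower in blue. The deepest falls sit distal of Mfge8, at the Trim genes.

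The 20 largest rises and the 20 largest falls also held genes of no list. Kif9, a kinesin, was at 1.17, 1.04, 2.35 and 0 in WT and 16.7, 12.1, 7.99, 22.5 and 14.8 in null libraries (log2 change 2.94, SE 0.47, limma adjusted p = 0.00209), its call held in each alternative that could be run on it, and the groups were apart at a low level. Zfp37, a zinc finger protein, and Gml, of the LY6 family, also rose from low levels (log2 changes 2.70 and 2.81, limma adjusted p = 0.00256 and 0.0165), the Gml call lost without WT 1, null 3, null 4 or null 5. Lect2, a secreted leukocyte attractant, was at 21.04, 17.7, 38.4 and 9.93 in WT and 3.92, 2.19, 1.998, 1.07 and 0.820 in null libraries (log2 change -2.86, SE 0.47, limma adjusted p = 0.00233). Itpr1, a calcium channel of the endoplasmic reticulum, ranged 38.5 to 78.3 in WT and 3.28 to 18.6 in null libraries (log2 change -2.16, limma adjusted p = 0.00642), and Fras1, a basement membrane protein, 8.18 to 21.95 and 1.64 to 2.997 (log2 change -2.21, limma adjusted p = 0.00692). Pbld1 and BC089597 fell by log2 changes of -2.38 and -2.32 (limma adjusted p = 0.0162 and 0.0133), both lost without WT 1 Pbld1 also without WT 2 and BC089597 also by DESeq2 and limma with robust settings. The pseudogene Marcksl1-ps4 had 27 reads in the WT and 3 in the null libraries (log2 change -2.35, limma adjusted p = 0.0427), a null level of 8.96% of WT with an exact 95% interval of 1.74 to 29.1% for counting error only, and this call was lost without any library other than null 2.

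Beyond the lists, several of the 68 steadiest genes are given here by name, chosen after their values were seen. Afp, the fetal serum protein, was at 177, 132, 152 and 128 in WT and 62.7, 69.1, 41.95, 65.3 and 35.3 in null libraries (log2 change -1.44, SE 0.21, limma adjusted p = 0.000932). Sgk3, a kinase of the SGK family, was at 38.6, 43.7, 39.2 and 39.7 in WT and 12.7, 9.87, 27.97, 11.8 and 15.6 in null libraries (log2 change -1.41, limma adjusted p = 0.0103), and WT libraries were nearly equal. Bok, a BCL2-family protein, was at 87.7, 75.9, 92.5 and 66.5 in WT and 8.82, 31.8, 39.95, 17.1 and 21.3 in null libraries (log2 change -1.87, limma adjusted p = 0.00421). The list of urea cycle and arginine enzymes contributed Oat, ornithine aminotransferase, which fell from a range of 604 to 1029 to one of 334 to 537 (log2 change -1.10, limma adjusted p = 0.00233) as the only call of 28 tested members. Pam, a peptide-amidating enzyme, and Adam10, a membrane protease, rose by 1.30 and 0.92 (limma adjusted p = 0.00126 and 0.00446). Acat1, Bco1, Casp1, Casp8, Ddit3, Hadha, Lrat, Prdx5, Rfxank and Tap1, which were not called, were also named outside the rule that chose the other genes.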

How the data were processed

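RNA of 4 WT and 5 Mfge8 null enterocyte libraries was read with QuantSeq forward 3' tags in single-end reads, per the labels' protocols. Trimmomatic 0.38.1, HISAT2 2.1.0, HTSeq 0.91, DESeq2 2.11.40 and the build mm10 are listed in the submitters' processing notes, but their order, settings, strand option and use of molecular identifiers are not given in the sources used here. The deposited signal values are gene counts that the authors divided by 1 factor per library: 100% of the values were whole multiples of 1 step per column, within 0.001 of the read count, although the step is less certain in WT 4 and null 3, where it is close to 1. On the recovered reads edgeR called 318 genes and DESeq2 430.

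Genes that reached 5 in 4 or more libraries entered the limma-trend fit (limma 3.58.1, R 4.3.3) of log2(value + 1), whose 2-sided p-values were adjusted by the Benjamini-Hochberg method and read at 0.05. Alternatives were pseudocounts of 0.5 and 5, no filter or a mean of at least 20, rescaling by TMM or upper quartiles, robust limma, edgeR 4.0.16 and DESeq2 1.42.0 on recovered reads, a replicate block, a regional score as covariate, and leaving out libraries. The scripts were tested on simulated data. Depth was 1618369 to 2459812 reads per library, and low genes are the least precise. The intervals cover counting error only.

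Except where stated, named genes came from a set chosen by rule, not all of which is printed: Mfge8, the 20 largest rises and falls, the called genes with the smallest adjusted p, called list members, and abundant uncalled members of each list. Members and lists were chosen with earlier results of these data known. Trim, Akr1c, Ces, Gsta, H2, Gsdmc, Reg3, Ugt2b and Cyp genes have close copies, so reads may be assigned to the wrong one. Promoter sequences came from RefSeq (GRCm38.p6). The 7 small intestine libraries, normalised in a separate table, were not used.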

Additional observations from a re-analysis of the deposited data

Results flagged for a closer look

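Values of the genes shown library by library were examined for a library far from the others of its genotype. So were library depth, genes with reads, the share of the most abundant genes, principal component positions and the regional score. Together these made 120 groups of 4 or 5 libraries. By chance about 1 in 20 groups would give such a library, and 7 of the 120 did, near that share. Ciita in WT 1 was 2.34, below 6.24 to 6.95 in the other WT libraries, and Acaa2 in WT 1 was 447, above 225 to 236. Fabp6 in WT 4 was 8959, beside 43.3 to 416 in the other WT libraries. Among null libraries, Cat in null 1 was 446 (732 to 808 in the others), Akr1c14 in null 3 was 8.99 (0 to 2.46) and Trim12a in null 1 was 1.96 (0 in each of the others). In depth WT 3, with 2459812 reads, stood above the other WT libraries (1618369 to 1756643). The calls of Ciita, Acaa2, Cat, Akr1c14 and Trim12a held without the library named, and Fabp6 was not called.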

How the results depend on the processing

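Of 303 called genes 68 kept their call in every alternative that could be run on them, and no call changed sign. The counts of calls, of rises and of falls ranged from 135 to 387, 73 to 197 and 62 to 190 over fits that left out 1 library, the lowest without WT 1 and the highest without WT 4. The highest number of falls was also reached without null 2. With the regional score as a covariate there were 79 calls (43 higher, 36 lower), and without null 3 and null 5 together 116 (51 higher, 65 lower). DESeq2 on recovered reads gave 227 rises (430 calls in all). The other settings stayed within 1.5 times the main counts: edgeR gave 318 calls, TMM rescaling 310, upper quartiles 327. The cause of these shifts was not tested.

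Mfge8 had a log2 change of -1.874, which stayed the same without the filter but missed the threshold (limma adjusted p = 0.0541). It was -1.142 with the regional score (0.456), -1.53 without null 3 and null 5 (0.174), and between -2.143 (without null 4) and -1.632 (without WT 1) when 1 library was left out. With a replicate block over libraries 1 to 4 of both genotypes it was -1.722 (limma adjusted p = 0.106), and 233 genes were called. Libraries of the same number deviated together with correlations of -0.12, -0.0744, 0.214 and 0.0911, and only number 3 correlated best with its own, so the numbers are not known to pair the libraries. Low genes, Mfge8 among them, are limited by depth.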

Other observations

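Some genes varied widely within a genotype. Celf5, an RNA-binding protein, was at 14.9 in WT 4 and between 362 and 803 in the other 3 WT libraries, while null libraries held 806 to 1283 (log2 change 2.22, limma adjusted p = 0.142). Fabp6 spanned 43.3 to 8959 in WT and 34.3 to 6807 in null libraries, and Pla2g4c 23.6 to 3542 in null libraries. These genes were chosen after their values were seen.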
